A study of Mus musculus with 30 samples.

Results

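The comparison asked what a water extract of Korean Red Ginseng, given before D-galactose, did to gene expression in mouse muscle cells that then received the sugar. It set 3 libraries of myotubes pretreated with the extract and exposed to D-galactose (RGW_Dgal) against 3 libraries exposed to D-galactose alone (Dgal), 6 of the 30 RNA-seq libraries in the series, across the 12184 of 16025 listed genes with enough counts to test. All cells were wild-type C2C12, a mouse myoblast line, grown to confluence and differentiated into myotubes in medium with 2% serum for 5 to 7 days. RGW_Dgal cultures received the water extract at 100 µg/mL for 12 h and then D-galactose at 20 mg/mL for 24 h, and Dgal cultures received D-galactose at the same dose for 24 h. Groups of 3 libraries each that received the saponin fraction (SFr_Dgal) or the non-saponin fraction (NSFr_Dgal) of the ginseng at 100 µg/mL, or the saponin ginsenoside Rb2 at 20 µM (Rb2_Dgal), for 12 h before D-galactose served for comparison. So did cultures given the extract at 100 µg/mL for 12 h without D-galactose (RGW) and vehicle controls. What the RGW cultures received after those 12 h is not stated. The series text calls the libraries of a group biological replicates, and all of them come from a single cell line.

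D-galactose in excess is used in the laboratory to bring on oxidative stress and ageing-like changes in cells and animals. Red ginseng is steamed and dried ginseng root, and its saponins, the ginsenosides, are amphipathic steroid-like glycosides, whereas the non-saponin fraction is rich in polysaccharides and other polar compounds. Several pathways described here respond to such stress or to sterols. The transcription factor p53 turns on genes of cell cycle arrest, DNA repair and apoptosis. SREBP2 turns on cholesterol synthesis when membranes are low in cholesterol, and the liver X receptors (LXR) turn on cholesterol export when oxysterols accumulate.

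The 6 libraries held 22209300 to 28872300 counts, rounded to 6 digits, and a count of 3 in them corresponded to 0.104 to 0.135 CPM. CPM are counts scaled to a common library total after TMM correction. The cells carried the defining transcripts of myotubes, with Acta1 (skeletal actin) at 7355 ± 375 CPM in RGW_Dgal and 7309.6 ± 219 CPM in Dgal, and Myog (myogenin) at 1176 ± 78.9 CPM in RGW_Dgal and 1248 ± 56.2 CPM in Dgal (SD, n = 3). Markers of fat, blood, endothelial, epithelial and nerve cells were mostly low. The 9 fat cell markers summed to at most 21.4 CPM in RGW_Dgal and 20.1 CPM in Dgal, with Plin1, Cidec, Retn and Ucp1 at 0 in all 6 libraries. The 14 markers of blood, endothelial, epithelial and nerve cells summed to 25.1 to 27.9 CPM in RGW_Dgal and 29.0 to 30.8 CPM in Dgal, with Ptprc at 0. Other marker lists were high. The 16 markers of undifferentiated myoblasts summed to 7360 to 7759 CPM in RGW_Dgal and 7673 to 7807 CPM in Dgal. The 11 of fibroblasts and smooth muscle summed to 6992 to 7483 CPM and 7501 to 7595 CPM, and the 14 of bone and cartilage to 1367 to 1448 CPM and 1377 to 1402 CPM. Mitochondrially encoded transcripts took 1.55% ± 0.183 of the counts in RGW_Dgal and 1.49% ± 0.183 in Dgal (SD, n = 3; exact permutation test, two-sided, p = 0.7, where 0.1 is the smallest p possible), and none of their 13 genes was called. In bulk RNA, fewer cells of a type and less RNA per cell cannot be told apart.

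The extract changed many genes by small amounts. RGW_Dgal differed from Dgal in 617 genes, 5.06% of those tested, with 307 higher (2.52%) and 310 lower (2.54%). Calls were made with edgeR's quasi-likelihood test at an adjusted p under 0.05 (Benjamini-Hochberg over all tested genes). The median size of a called change was 0.21 on the log2 scale, 97 called genes moved by at least 1.3-fold, and 5 moved by at least 2-fold. These 5, named after their values were seen, were all expressed at low levels. Fam180a (1.54 ± 0.29), Itih5, Fmo2 (1.01 ± 0.27) and Serpina12 (1.01 ± 0.29) were higher and Notum, which encodes an enzyme that inactivates Wnt proteins, was lower (-1.42 ± 0.34; log2 fold change ± SE). The call of Fmo2 was lost without RGW_Dgal 1 (0.0788), RGW_Dgal 2 (0.0547), Dgal 1 (0.054), Dgal 2 (0.056) or Dgal 3 (0.0801), that of Serpina12 without RGW_Dgal 2 (0.0746), RGW_Dgal 3 (0.127), Dgal 1 (0.163) or Dgal 2 (0.0968) and that of Notum without Dgal 3 (0.08), with the adjusted p in brackets. Itih5, a gene for an inter-alpha-trypsin inhibitor heavy chain, stood at 3.08, 2.75 and 2.82 CPM in RGW_Dgal, against 1.03, 1.43 and 1.21 CPM in Dgal, a log2 fold change of 1.24 ± 0.17 (adjusted p = 1.04e-05). Fewer libraries gave shorter lists, 342 genes without Dgal 3 and 348 without RGW_Dgal 2, and a fit on the 6 libraries alone called 348, of which 215 were higher and 133 lower, so that 61.8% were higher against 49.8%.

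**Figure D1:**
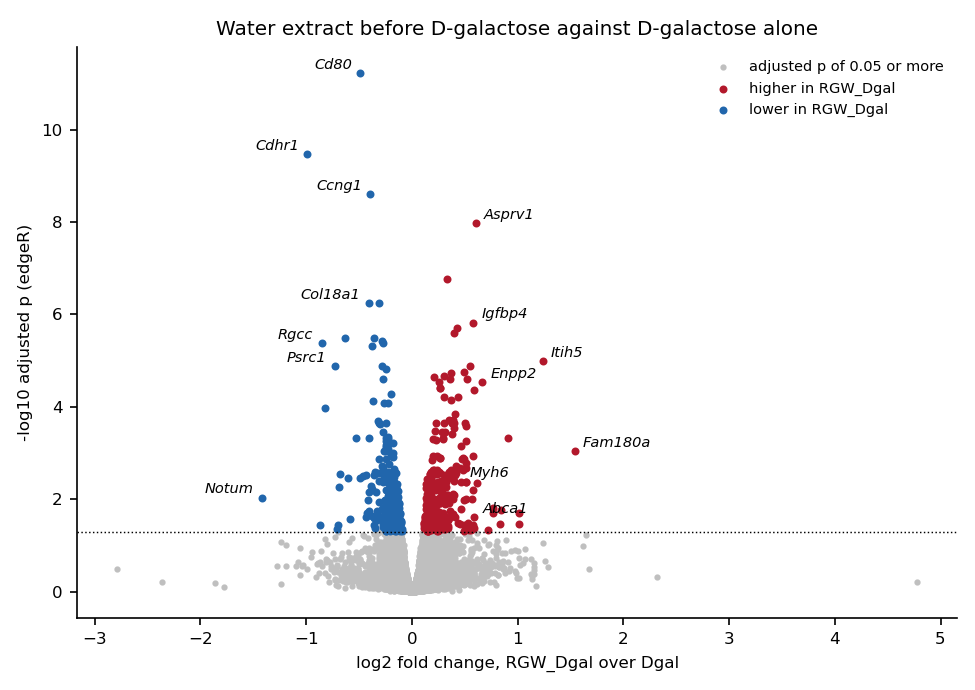
Each point is 1 of 12184 genes, placed by its log2 fold change in RGW_Dgal over Dgal (horizontal axis) and the -log10 of its adjusted p (vertical axis); the dotted line marks an adjusted p of 0.05. The 307 higher and 310 lower genes lie mostly within 1 unit of 0, Cd80, Cdhr1 and Ccng1 have the smallest p, and the 5 called points beyond 1 unit are genes of low expression.

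The largest falls among genes of at least 5 CPM were in Cdhr1, Rgcc, Psrc1 and Slc16a6. Cdhr1 encodes a cadherin known from photoreceptors and stood at 17.6, 19.4 and 19 CPM in RGW_Dgal, against 39.6, 34.5 and 37.2 CPM in Dgal. All 3 RGW_Dgal libraries lay below all 3 Dgal libraries, and the log2 fold change was -0.99 ± 0.078 (adjusted p = 3.4e-10). The largest rises and falls were picked only where the groups did not overlap, so this adds nothing to their calls. Such a lack of overlap held for 609 of the 617 called genes and for 2642 of all 12184 tested (21.7%). The vehicle controls held 31.4, 33.4 and 34.4 CPM, so that RGW_Dgal lay below both Dgal and control. Rgcc, a p53-inducible regulator of the cell cycle, stood at 5.85, 7.88 and 8.21 CPM in RGW_Dgal, against 12.5, 13.4 and 13.7 CPM in Dgal, and fell by 0.85 ± 0.11 on the log2 scale (adjusted p = 4.17e-06). Its control level was 4.32, 5.02 and 5.07 CPM, below both D-galactose groups. Slc16a6, a monocarboxylate transporter gene, stood at 9.56, 8.51 and 9.66 CPM in RGW_Dgal, against 13.1, 14.8 and 14.8 CPM in Dgal, and fell by 0.63 ± 0.078 (adjusted p = 3.25e-06). Controls held 5.01, 6.62 and 6.02 CPM, again below both.

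Cd80, which encodes a costimulatory ligand of T cells, had the smallest p of all genes. It stood at 111, 108 and 109.8 CPM in RGW_Dgal, against 151, 158 and 152 CPM in Dgal, with no overlap between the groups, and fell by 0.49 ± 0.033 (adjusted p = 5.96e-12). Col18a1, the gene of the basement membrane collagen that gives rise to endostatin, fell by 0.41 ± 0.046, with 111 ± 2.22 CPM in RGW_Dgal and 148 ± 6.3 CPM in Dgal (SD, n = 3; adjusted p = 5.74e-07). In the groups without D-galactose it stood at 118 ± 6.11 CPM in RGW and 148 ± 2.16 CPM in control. Falls in genes of lower level were in Gfra2, a neurturin co-receptor (-0.53 ± 0.094), Cnn1, the smooth muscle calponin (-0.60 ± 0.13), Aldoc, an aldolase isoform of glycolysis (-0.49 ± 0.1), Aldh1a3, which makes retinoic acid (-0.46 ± 0.097), and the thiamine transporter gene Slc19a2 (-0.43 ± 0.09), with adjusted p from 0.000479 to 0.00354. Their Dgal levels were above control for all 5, with Dgal over control at 0.67, 1.17, 0.81, 0.54 and 0.63 on the log2 scale. The Dgal libraries stand in both contrasts, so the pairs of values are not independent. Cxcl13, Lman1l, Dtl and Dynlt1c completed the 15 largest falls, at -0.43 ± 0.12, -0.43 ± 0.11, -0.41 ± 0.1 and -0.41 ± 0.11, and each of their calls was lost without at least 1 library.

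The largest rises of genes at 5 CPM or more began with Enpp2, Tceal5 and Asprv1. Enpp2 encodes autotaxin, the enzyme that makes lysophosphatidic acid, and stood at 12.3, 13.6 and 11.4 CPM in RGW_Dgal, against 7.77, 7.45 and 8.32 CPM in Dgal. The groups did not overlap and the log2 fold change was 0.67 ± 0.097 (adjusted p = 2.85e-05). Asprv1, a retroviral-like aspartic protease known from skin, stood at 52.4, 52.5 and 51.2 CPM in RGW_Dgal, against 34.9, 34.8 and 32.9 CPM in Dgal, and rose by 0.61 ± 0.057 (adjusted p = 1.07e-08). Igfbp4, a secreted binder of insulin-like growth factors, stood at 81.2, 84.2 and 85.6 CPM in RGW_Dgal, against 53.7, 57.4 and 57 CPM in Dgal, and rose by 0.58 ± 0.064 (adjusted p = 1.5e-06). All 3 genes had RGW_Dgal levels above the controls, which held 6.69, 7.21 and 6.23 CPM for Enpp2, 25.6, 23.7 and 26.7 CPM for Asprv1 and 69.4, 65.9 and 62.8 CPM for Igfbp4. Other rises of 0.5 or more were Itga10, a collagen receptor subunit (0.59 ± 0.087), Mgp, an inhibitor of calcification (0.58 ± 0.099), Spn, the leukocyte sialoprotein CD43 (0.55 ± 0.075), Omd, a matrix proteoglycan of bone (0.51 ± 0.1), Hsd17b13, a lipid droplet enzyme (0.51 ± 0.11), and the transcription factor gene Foxq1 (0.51 ± 0.092). Tceal5 (0.62 ± 0.14), Tmem158 (0.58 ± 0.16) and Padi3 (0.57 ± 0.14) passed too, with calls that were each lost without at least 1 library. Mgp stood at 118, 112 and 114 CPM in RGW_Dgal, against 79, 72.6 and 78.5 CPM in Dgal, and at 125, 107 and 105 CPM in control. Spn stood at 12.3, 12.7 and 11.2 CPM in RGW_Dgal, against 8.17, 7.99 and 8.55 CPM in Dgal, and at 13.4, 14.7 and 12.9 CPM in control. The RGW_Dgal libraries overlapped control for Mgp and lay below control for Spn. Col10a1, a collagen gene that marks hypertrophic cartilage, stood at 5.78, 6.21 and 6.44 CPM in RGW_Dgal, against 3.17, 3.3 and 3.3 CPM in Dgal, a change of 0.91 ± 0.16 (adjusted p = 0.000465). The 14 bone and cartilage markers summed to 1367 to 1448 CPM in RGW_Dgal and 1377 to 1402 CPM in Dgal, nearly all of it Spp1, with Acan at 0 in all 6 libraries, and their part in the result was not tested.

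**Figure D2:**
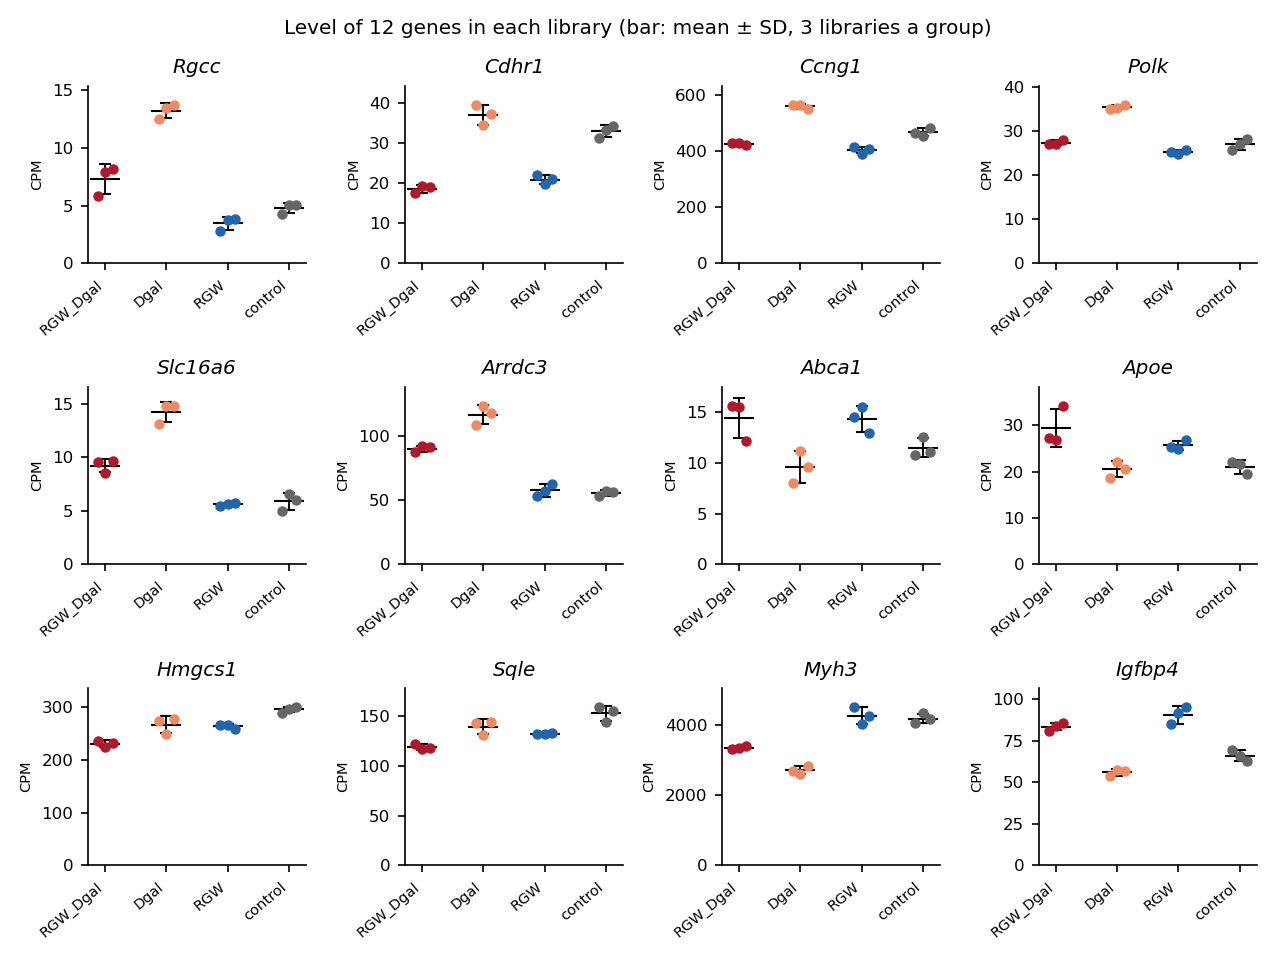
CPM of 12 genes (1 panel each, vertical axis from 0) in every library of RGW_Dgal, Dgal, RGW and control; points are libraries and bars are the mean ± SD of 3. Rgcc, Cdhr1, Ccng1, Polk, Slc16a6, Arrdc3, Hmgcs1 and Sqle lie lower in RGW_Dgal than in Dgal, and Abca1, Apoe, Myh3 and Igfbp4 lie higher.

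Targets of p53 were lower after the extract. Of 39 tested p53 targets 16 fell and 0 rose, against 2.54% and 2.52% of all genes, and the median log2 fold change was -0.16 against -0.00031 over all genes. Ccng1, the cyclin G1 gene and among the most p53-responsive in mouse cells, stood at 428, 430.2 and 422 CPM in RGW_Dgal, against 565, 565 and 549 CPM in Dgal. Every RGW_Dgal library lay below every Dgal library, a fall of 0.39 ± 0.034 (adjusted p = 2.48e-09), and controls held 466, 456 and 484 CPM. Polk, a DNA polymerase that copies past damaged bases, stood at 27, 27 and 27.9 CPM in RGW_Dgal, against 34.9, 35.3 and 35.8 CPM in Dgal, and fell by 0.37 ± 0.048 (adjusted p = 4.74e-06), to a level that overlapped that of controls (25.7, 27.1 and 28.1 CPM). Psrc1, which encodes a spindle-associated protein, fell by 0.73 ± 0.099, with 7.06 ± 0.665 CPM in RGW_Dgal and 11.7 ± 0.9 CPM in Dgal (SD, n = 3).

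Smaller falls were called in some members of several arms of the p53 response. Among apoptosis genes, Tnfrsf10b, the TRAIL receptor, fell by 0.31 ± 0.059 and Eda2r, another receptor of the same family, by 0.20 ± 0.045. Aen, an exonuclease that cuts DNA in dying cells, fell by 0.22 ± 0.041. The apoptosis genes Bax, Bbc3, Pmaip1, Fas and Perp of the same list were tested and not called. Among growth regulators, Btg2 fell by 0.26 ± 0.041 and the RNA-binding protein gene Zmat3 by 0.24 ± 0.044. Mdm2, the ubiquitin ligase that degrades p53, fell by 0.17 ± 0.036 (adjusted p = 0.00412), with 153, 154 and 148 CPM in RGW_Dgal, against 174, 172 and 165 CPM in Dgal. The detoxifying epoxide hydrolase gene Ephx1 stood at 102, 109 and 109 CPM in RGW_Dgal, against 115, 137 and 125 CPM in Dgal, a fall of 0.24 ± 0.049 (adjusted p = 0.00291), and at 78.7, 78.4 and 81.4 CPM in controls. Cdkn1a, the p21 gene and the best known p53 target, did not pass the test, at 1897, 1912 and 1991 CPM in RGW_Dgal, against 2083, 2157 and 2014 CPM in Dgal (log2 fold change -0.11 ± 0.038, adjusted p = 0.0922). Trp53 itself stood at 62.4 ± 1.13 CPM in RGW_Dgal and 64.2 ± 2.92 CPM in Dgal (SD, n = 3; adjusted p = 0.693), and 0 of 11 members of the core p53 circuit were called, with 0 also at an unadjusted p under 0.05. The other 6 calls, Ddit4l, Gpx1, Sesn2, Sulf2, Trp53inp1 and Ei24, were each lost without at least 1 library, and the count of targets that fell was 11 to 16 over the alternatives. Set against control, Ccng1 stood at -0.13 in RGW_Dgal and 0.26 in Dgal on the log2 scale, Polk at 0.02 and 0.39, Btg2 at 0.15 and 0.41, Tnfrsf10b at 0.10 and 0.41 and Ephx1 at 0.43 and 0.66 for RGW_Dgal and Dgal, with the control libraries shared.

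Promoters of the p53 targets were searched because 16 of the 39 tested fell. The window was the 250 bases before each RefSeq gene start (GRCm38.p6), and the motif was the 10-base p53 half-site consensus, read on both strands. Of 16 targets that fell, 13 had a window and 6 of these held the half-site (46.2%), as did 5 of 17 targets that were not called (29.4%) and 690 of 9683 tested genes (7.13%). A match is a description of the letters and not of binding. The 3 windows shown are those of Ccng1, with the smallest p among the targets, Aen, and Ei24, whose match abuts the gene start. They are written along the gene strand with the half-site in capitals.
Ccng1 (chr11:40755287-40755536, minus strand): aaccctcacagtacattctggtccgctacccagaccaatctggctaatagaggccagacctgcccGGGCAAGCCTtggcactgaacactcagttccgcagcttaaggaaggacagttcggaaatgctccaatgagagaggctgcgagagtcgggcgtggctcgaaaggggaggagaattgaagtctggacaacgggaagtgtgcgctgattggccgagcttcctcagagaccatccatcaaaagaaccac
Aen (chr7:78895808-78896057, plus strand): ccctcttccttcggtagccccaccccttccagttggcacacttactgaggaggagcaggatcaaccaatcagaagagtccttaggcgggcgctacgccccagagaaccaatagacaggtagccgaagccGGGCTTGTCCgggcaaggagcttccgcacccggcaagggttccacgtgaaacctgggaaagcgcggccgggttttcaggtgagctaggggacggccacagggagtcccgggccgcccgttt
Ei24 (chr9:36797335-36797584, minus strand): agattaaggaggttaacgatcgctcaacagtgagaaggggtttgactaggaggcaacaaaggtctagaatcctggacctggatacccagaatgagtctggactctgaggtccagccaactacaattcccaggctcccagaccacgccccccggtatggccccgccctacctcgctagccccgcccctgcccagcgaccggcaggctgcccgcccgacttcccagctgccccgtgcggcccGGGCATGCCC
The match lay 185 to 176 bases before the start of Ccng1, 121 to 112 before Aen and 10 to 1 before Ei24. In the GENCODE vM21 annotation, 25 bases of the Ccng1 window, 204 of the Aen window and 59 of the Ei24 window fall within an exon of the gene, since its annotated start lies further upstream. Ei24, an endoplasmic reticulum protein gene, stood at 137, 138 and 142 CPM in RGW_Dgal, against 153, 157 and 146 CPM in Dgal (log2 fold change -0.13 ± 0.032, adjusted p = 0.0142), a call that was lost without RGW_Dgal 1 (0.0688), RGW_Dgal 2 (0.0815) or Dgal 2 (0.0883) (adjusted p in brackets).

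Genes of cholesterol export rose where they were called, and most called genes of cholesterol synthesis fell. Of 10 tested genes of efflux and LXR response 5 rose and 0 fell, with a median log2 fold change of 0.20, whereas of 26 cholesterol synthesis genes 7 fell and 2 rose, with a median of -0.09. Over all genes 2.52% were higher and 2.54% lower. Apoe, the lipoprotein component that accepts exported cholesterol, stood at 27.2, 26.9 and 34.1 CPM in RGW_Dgal, against 18.7, 22.2 and 20.6 CPM in Dgal, and rose by 0.52 ± 0.074 (adjusted p = 2.54e-05). Abca1, the transporter that loads cholesterol onto lipoproteins, stood at 15.6, 15.5 and 12.1 CPM in RGW_Dgal, against 8, 11.2 and 9.6 CPM in Dgal, and rose by 0.59 ± 0.15 (adjusted p = 0.0246). Abcg1, its partner in efflux, had 11.6 ± 0.723 CPM in RGW_Dgal and 8.89 ± 0.352 CPM in Dgal (log2 fold change 0.39 ± 0.092), Srebf1, the gene of the lipogenic factor SREBP1, had 125 ± 4.99 CPM in RGW_Dgal and 110.0 ± 3.68 CPM in Dgal (0.18 ± 0.038, adjusted p = 0.00264), and Mylip, a sterol-induced ubiquitin ligase, had 34.9 ± 1.32 CPM in RGW_Dgal and 30.5 ± 1.7 CPM in Dgal (0.19 ± 0.058; SD, n = 3 each). The groups did not overlap for any of the 5, nor for 609 of all 617 called genes. The receptor genes Nr1h2 and Nr1h3, encoding LXR beta and alpha, were not called (0.10 ± 0.048 and 0.22 ± 0.19). The calls of Abca1 were lost without RGW_Dgal 1 (0.086), RGW_Dgal 2 (0.109), Dgal 1 (0.125) or Dgal 3 (0.0814), that of Abcg1 without RGW_Dgal 2 (0.0765) and that of Mylip without RGW_Dgal 1 (0.0599), RGW_Dgal 2 (0.207), RGW_Dgal 3 (0.067), Dgal 1 (0.225) or Dgal 3 (0.101), with the adjusted p in brackets. The number of members that rose was 3 without RGW_Dgal 1, 2 without RGW_Dgal 2 and 3 without Dgal 1.

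In the synthesis pathway the 7 genes that fell span it from its first steps to lanosterol demethylation. Hmgcs1, which makes the precursor HMG-CoA, stood at 236, 224 and 233 CPM in RGW_Dgal, against 273, 249 and 278 CPM in Dgal, and fell by 0.21 ± 0.038 (adjusted p = 0.000613). Sqle, squalene epoxidase, stood at 123, 117 and 118 CPM in RGW_Dgal, against 144, 131 and 145 CPM in Dgal, and fell by 0.23 ± 0.041 (adjusted p = 0.000501). Falls of 0.28 ± 0.057 in Acat2, 0.21 ± 0.044 in Idi1, 0.21 ± 0.042 in Fdft1 and 0.24 ± 0.043 in Msmo1 were close to these in size. The sterol-responsive gene Insig1 had 96 ± 2.13 CPM in RGW_Dgal and 98.4 ± 7.43 CPM in Dgal (SD, n = 3) and was not called (log2 fold change -0.04 ± 0.043). The 2 members that rose, Ebp (0.18 ± 0.048) and Dhcr7 (0.16 ± 0.037), act late in the pathway. Their calls were lost without RGW_Dgal 3 (0.168), Dgal 2 (0.0743) or Dgal 3 (0.126) and without Dgal 1 (0.07), and 1 of them was left without RGW_Dgal 3 or any 1 Dgal library.

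An LXR element was looked for in the same 250-base windows, on both strands, as the half-sites GGTTA and GGTCA with a spacer of 5 bases. This form was taken with results of these data known. Its shares below therefore describe letters and are not a test of LXR. The textbook consensus, a direct repeat of AGGTCA with a spacer of 4 bases, was in the window of 0 of 9683 tested genes. Its half-sites are written with 6 letters and those of the form with GGTTA with 5, so the 2 forms have the same spacing. Of the 4 genes that rose and had a window, Abca1 and Srebf1 held the form with GGTTA, against 0 of 4 list members not called and 6 of 9683 tested genes (0.062%). The windows are shown because only these 6 tested genes hold the letters and 2 of them belong to the list. Both are written along the gene strand, and the capitals mark the element, which reads on the opposite strand as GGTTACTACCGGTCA at Abca1 and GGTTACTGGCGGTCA at Srebf1.
Abca1 (chr4:53159896-53160145, minus strand): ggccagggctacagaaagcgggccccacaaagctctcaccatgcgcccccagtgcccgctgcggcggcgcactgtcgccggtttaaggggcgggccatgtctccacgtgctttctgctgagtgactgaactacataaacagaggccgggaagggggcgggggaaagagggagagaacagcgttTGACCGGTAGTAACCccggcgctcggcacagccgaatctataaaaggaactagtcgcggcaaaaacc
Srebf1 (chr11:60210472-60210721, minus strand): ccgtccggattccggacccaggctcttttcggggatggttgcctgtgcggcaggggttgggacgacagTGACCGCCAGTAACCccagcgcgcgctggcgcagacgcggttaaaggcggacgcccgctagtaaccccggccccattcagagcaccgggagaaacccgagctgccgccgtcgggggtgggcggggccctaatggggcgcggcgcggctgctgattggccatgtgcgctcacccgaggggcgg
The element lay 67 to 53 bases before the start of Abca1 and 182 to 168 before that of Srebf1. The Abca1 window lies wholly upstream of the annotated gene. The Srebf1 window lies within the gene span between exons, so this RefSeq start lies downstream of the first annotated exon. The other 4 genes with the letters were not called. They were Fasn, fatty acid synthase (0.18 ± 0.086), Acsl3, an acyl-CoA synthetase (-0.02 ± 0.03), Prrg4 (-0.13 ± 0.11) and Tmco4 (-0.07 ± 0.14).

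Genes of the contractile apparatus were higher where they changed. Of 46 sarcomere genes 8 rose and 0 fell, where 2.52% of all genes rose and 2.54% fell, and the median log2 fold change was 0.05. Among them were 5 myosin heavy chain genes, whose sequences are close enough that the division of reads between them is uncertain. Myh3, the embryonic isoform, stood at 3326, 3359.7 and 3395 CPM in RGW_Dgal, against 2706, 2605 and 2831 CPM in Dgal, and rose by 0.31 ± 0.044 (adjusted p = 2.15e-05), and controls held 4068, 4337 and 4171 CPM, above both groups. Myh2, the fast isoform of type IIa fibres, stood at 107, 113 and 116 CPM in RGW_Dgal, against 78.8, 72.9 and 84.8 CPM in Dgal, and rose by 0.50 ± 0.076 (adjusted p = 0.000222). Myh7, the slow isoform, rose by 0.27 ± 0.057, and Myh6, the cardiac alpha isoform, by 0.47 ± 0.095, the last of these only in the fit over all groups (adjusted p = 0.141 with only the 6 libraries). The most abundant structural transcripts did not pass, with Acta1 at a log2 fold change of 0.01 ± 0.035, Des (desmin) at -0.04 ± 0.034, Actn2 at -0.02 ± 0.047 and Tnnt3 at 0.06 ± 0.048. Ttn (titin) varied from 2238 to 3785 CPM within RGW_Dgal (log2 fold change 0.30 ± 0.28, adjusted p = 0.608).

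The number of sarcomere genes that rose was 4 without RGW_Dgal 3, 5 without Dgal 2 and 5 in a fit with the 6 libraries alone. Of 23 genes of excitation and contraction coupling 4 rose, Cacna1s, Stac3, Casq1 and Jph2, which encode the voltage sensor, its adaptor, the calcium store protein and a junction protein, at log2 fold changes of 0.17, 0.19, 0.15 and 0.15. Only 1 such rise was left without RGW_Dgal 3, Dgal 1, Dgal 2 or Dgal 3. The share of all genes that rose was 2.52%, and 2.54% fell. Rapsn, which clusters acetylcholine receptors, rose by 0.24 ± 0.049 (adjusted p = 0.00236), with 77.3, 81.2 and 88.5 CPM in RGW_Dgal, against 71.8, 68.3 and 68.9 CPM in Dgal. Of 19 myogenic regulators and fusion genes 0 were called with edgeR (4 at an unadjusted p under 0.05), and Myod1 stood at 231 ± 11.7 CPM in RGW_Dgal and 224 ± 12.7 CPM in Dgal (SD, n = 3). Of 22 atrophy genes the ubiquitin ligase gene Fbxo40 rose by 0.30 ± 0.065 (adjusted p = 0.00415), and the ligase genes Fbxo32 (atrogin) and Trim63 (MuRF) were not called, at 0.06 ± 0.049 and 0.13 ± 0.061. Mt1, a metal-binding protein gene on the same list, rose by 0.31 ± 0.075 (adjusted p = 0.0128), a call that was lost without RGW_Dgal 3 (0.0948), Dgal 1 (0.072) or Dgal 3 (0.0801), which left 1 atrophy gene higher.

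Some genes that respond to sugar and to low oxygen were lower. Arrdc3 and Txnip encode alpha-arrestins, adaptor proteins of membrane traffic. Txnip is turned on through MondoA by sugar phosphates and restrains glucose uptake. Arrdc3 stood at 87.4, 91.9 and 91 CPM in RGW_Dgal, against 108, 123 and 118 CPM in Dgal, and fell by 0.37 ± 0.056 (adjusted p = 7.34e-05). Controls held 52.9, 56.9 and 56.7 CPM, and the RGW_Dgal level lay between the controls and Dgal. Txnip stood at 317, 326 and 332 CPM in RGW_Dgal, against 379, 376 and 401 CPM in Dgal, and fell by 0.24 ± 0.047 (adjusted p = 0.00132), below the controls at 345, 361 and 376 CPM. Arrdc4, of the same family, was at -0.20 ± 0.14 and was not called. Of the 10 tested genes of this list 2 fell and 0 rose, beside 2.54% and 2.52% of all genes.

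Of 22 hypoxia genes 5 fell and 0 rose, beside 2.54% of all genes lower and 2.52% higher, with a median log2 fold change of -0.09. Car9, a carbonic anhydrase turned on by HIF1, stood at 139, 134 and 146 CPM in RGW_Dgal, against 169, 183 and 182 CPM in Dgal, and fell by 0.35 ± 0.067 (adjusted p = 0.00251). Car12, a related enzyme, had 14.3 ± 0.272 CPM in RGW_Dgal and 18.4 ± 1.02 CPM in Dgal (SD, n = 3), a fall of 0.36 ± 0.076, and Plod2, a collagen-modifying hydroxylase, fell by 0.14 ± 0.033. Hif1a, encoding the oxygen-regulated subunit of HIF1, fell by 0.17 ± 0.04 and the histone demethylase gene Kdm3a by 0.15 ± 0.043. The call of Hif1a was lost without RGW_Dgal 3 (0.0546) or Dgal 3 (0.0654) and that of Kdm3a without each of the 6 libraries in turn (adjusted p up to 0.126), and the count that fell was 3 without Dgal 3. Of 27 glycolysis genes 1 fell (Aldoc) and 0 rose, and Hk2 and Pkm were at 0.04 ± 0.04 and -0.08 ± 0.033.

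Detoxification genes moved in both directions. Of 8 aryl hydrocarbon receptor genes 3 rose and 0 fell, where 2.52% of all genes rose and 2.54% fell. Cyp1b1, a cytochrome P450 induced by this receptor, stood at 130.2, 131 and 120.4 CPM in RGW_Dgal, against 103, 103 and 109.8 CPM in Dgal, and rose by 0.27 ± 0.04 (adjusted p = 3.84e-05), and Ahr, the receptor gene, rose by 0.24 ± 0.053 with 46.1 ± 1.91 CPM in RGW_Dgal and 39 ± 2.27 CPM in Dgal (SD, n = 3; adjusted p = 0.00464). Aldh3a1, an aldehyde dehydrogenase, rose by 0.40 ± 0.11, a call that was lost without RGW_Dgal 3 (0.103), Dgal 1 (0.114) or Dgal 3 (0.077), and Tiparp, a direct target of the receptor, was at -0.07 ± 0.037 and was not called. Of 31 NRF2 targets, the antioxidant response genes, 4 rose and 3 fell. Gstm2 rose by 0.40 ± 0.066, with 17.1 ± 0.868 CPM in RGW_Dgal and 12.9 ± 1.11 CPM in Dgal (SD, n = 3), but is a close copy of Gstm1 (0.23 ± 0.064), so that the division of reads between them is uncertain. Ferritin light and heavy chain genes, Ftl1 and Fth1, had log2 fold changes of 0.21 ± 0.056 and 0.20 ± 0.044, with calls that were lost without RGW_Dgal 2 (0.0645), RGW_Dgal 3 (0.117), Dgal 1 (0.0995) or Dgal 3 (0.0756) and without RGW_Dgal 3 (0.0662). Nfe2l2, the gene of NRF2 itself, fell by 0.14 ± 0.032, with 144 ± 0.616 CPM in RGW_Dgal and 158 ± 2.61 CPM in Dgal (SD, n = 3), and Osgin1, an oxidative stress response gene, fell by 0.31 ± 0.066, a call that was lost without RGW_Dgal 1 (0.0534). The count of NRF2 targets that rose was 2 without RGW_Dgal 2, 1 without RGW_Dgal 3, 2 without Dgal 1 and 2 without Dgal 3.

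**Figure D3:**
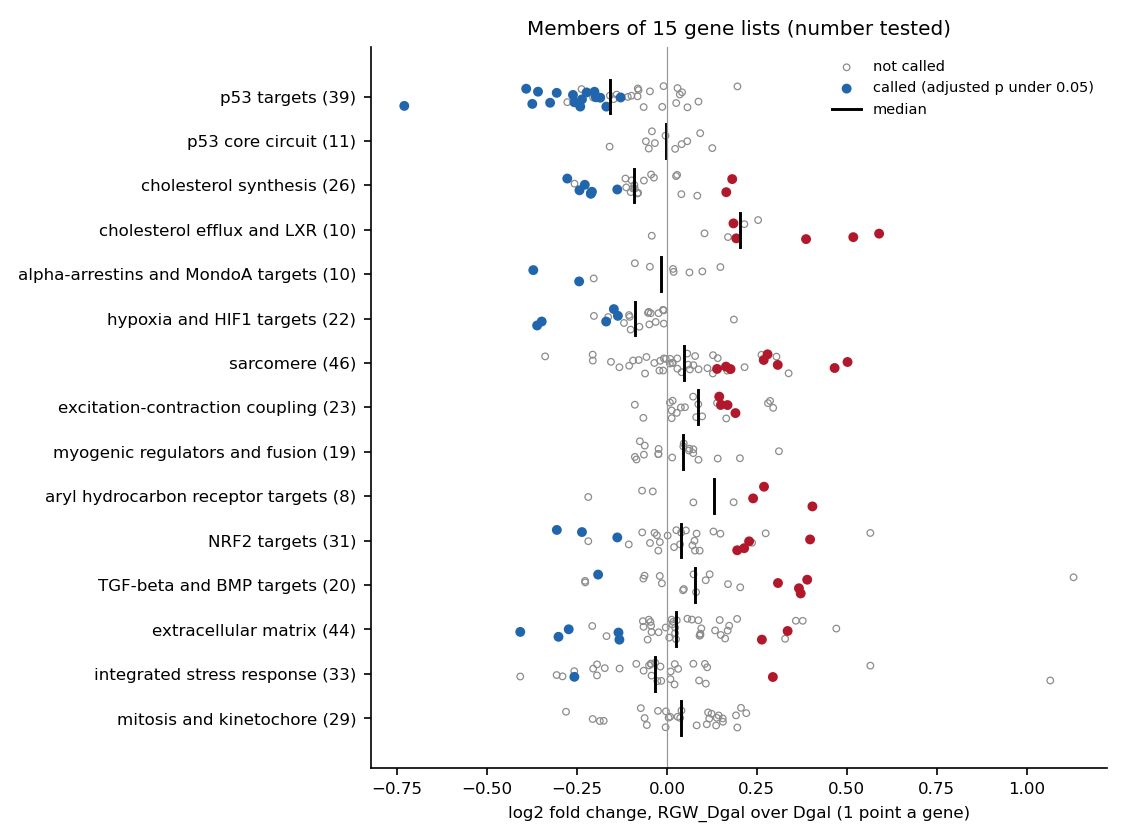
Log2 fold change of RGW_Dgal over Dgal (horizontal axis) for every tested member of 15 gene lists (number tested in brackets); filled points passed an adjusted p of 0.05, blue lower and red higher, and the bar is the list's median. The 16 called p53 targets lie to the left, the 5 called efflux and LXR genes and the 8 called sarcomere genes to the right, and cholesterol synthesis has 7 to the left and 2 to the right.

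Growth factor signalling genes changed in a few members of each pathway, where 2.52% of all genes rose and 2.54% fell. Of 20 TGF-beta and BMP genes 1 fell and 4 rose, Bmp4, a ligand, by 0.31 ± 0.051, Grem1, a BMP antagonist, by 0.37 ± 0.051, the target Id3, an inhibitor of differentiation factors, by 0.37 ± 0.074, and the feedback inhibitor Smad6 by 0.39 ± 0.091. Grem1 stood at 283, 269 and 248 CPM in RGW_Dgal, against 203, 208 and 208 CPM in Dgal (adjusted p = 1.88e-05) and Bmp4 at 41.4, 43.3 and 41.1 CPM in RGW_Dgal, against 34, 33.5 and 34.1 CPM in Dgal (adjusted p = 0.000222), without overlap. The call of Smad6 was lost without Dgal 1 (0.0632). Of 20 Wnt genes 3 rose and 1 fell. Sfrp2, a secreted Wnt modulator, stood at 79.1, 79.7 and 77 CPM in RGW_Dgal, against 58.9, 59.3 and 60.7 CPM in Dgal, and rose by 0.40 ± 0.049 (adjusted p = 2.56e-06), the ligand gene Wnt10a rose by 0.29 ± 0.052 and the feedback gene Nkd2 by 0.29 ± 0.065, while Notum stood at 0.312, 0.349 and 0.362 CPM in RGW_Dgal, against 0.715, 0.892 and 1.13 CPM in Dgal. The call of Nkd2 was lost without Dgal 1 (0.0729) and that of Notum without Dgal 3 (0.08).

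In the extracellular matrix 5 of 44 genes fell and 2 rose, set against 2.54% and 2.52% of all genes. After Col18a1 the falls were largest in Loxl2, a collagen cross-linking oxidase (-0.30 ± 0.05, adjusted p = 0.000233), with 48.9, 48.3 and 48.1 CPM in RGW_Dgal, against 56.4, 62.2 and 60.4 CPM in Dgal, and Fbln2, fibulin-2 (-0.27 ± 0.054, adjusted p = 0.00243), with 405, 405 and 392 CPM in RGW_Dgal, against 466, 482 and 504 CPM in Dgal. The count of matrix genes that fell was 3 without RGW_Dgal 2, where Sparc (-0.13 ± 0.034) and Lox (-0.13 ± 0.037) were no longer called. The rises were in Nid2 (0.26 ± 0.072), whose call was lost without RGW_Dgal 1 (0.111), RGW_Dgal 2 (0.124), Dgal 1 (0.147) or Dgal 2 (0.106), and Fbln7 (0.34 ± 0.078), whose call was lost without RGW_Dgal 3 (0.068), Dgal 1 (0.054) or Dgal 3 (0.0682). No matrix gene was called higher without Dgal 1. Smooth muscle and fibroblast markers moved beside these. Of 9 tested, Cnn1, Tagln and Acta2 fell and Mylk rose (-0.60 ± 0.13, -0.26 ± 0.061, -0.13 ± 0.037 and 0.34 ± 0.099), 1 was left lower without RGW_Dgal 2 or without Dgal 1, and the 11 listed summed to 6992 to 7483 CPM in RGW_Dgal and 7501 to 7595 CPM in Dgal. Their part in the matrix result was not tested. Among 15 markers of undifferentiated myoblasts 2 fell and 1, Id3, rose. Sdc3, a syndecan of muscle stem cells, fell by 0.36 ± 0.045 (adjusted p = 3.25e-06), with 94.3, 95.7 and 96.2 CPM in RGW_Dgal, against 116, 125 and 127 CPM in Dgal. Cd34, a surface sialomucin, fell by 0.17 ± 0.044, a call that was lost without RGW_Dgal 2 (0.0661), RGW_Dgal 3 (0.0804) or Dgal 1 (0.0529).

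Senescence genes were called in both directions, and none of the mitosis genes was called. Of 30 genes of the senescence-associated secretory set 2 rose, Igfbp4 and Lif, and 3 fell, among them Igfbp3 and Plat, beside 2.52% of all genes higher and 2.54% lower. Plat, tissue plasminogen activator, had 79.4 ± 0.309 CPM in RGW_Dgal and 89.9 ± 2.97 CPM in Dgal (SD, n = 3; -0.18 ± 0.037, adjusted p = 0.00254), and the count that fell was 1 without RGW_Dgal 2. The call of Lif was lost without RGW_Dgal 1 (0.128), RGW_Dgal 2 (0.101) or Dgal 2 (0.197). Il6 stood at 0.664, 0.837 and 1.13 CPM in RGW_Dgal, against 0.625, 0.848 and 0.505 CPM in Dgal, and was not called (0.42 ± 0.3). The 29 tested mitosis genes had 0 calls with edgeR (3 at an unadjusted p under 0.05), with Mki67 at 26.2, 24.2 and 17.9 CPM in RGW_Dgal, against 21.1, 19.8 and 20.5 CPM in Dgal and Ccna2 at 10.4, 11.3 and 11.1 CPM in RGW_Dgal, against 10.2, 10.3 and 12 CPM in Dgal. The mitosis genes together summed to 237 to 262 CPM in RGW_Dgal and 222 to 249 CPM in Dgal, and to 475 to 478 CPM in controls. Of 33 integrated stress response genes 1 rose, Phgdh, which opens serine synthesis (0.29 ± 0.052, adjusted p = 0.000498), and 1 fell, Sesn2, a share of 6.06% called, near the 5.06% of all genes. In all, 16 of the 54 lists had no called member, among them autophagy and lysosome, heat shock, chaperones of the endoplasmic reticulum, proteasome, ribosome biogenesis, NF-kB, Notch, osmotic response and mitochondrial biogenesis, and 503 of the 617 called genes stood in no list.

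The extract without D-galactose, set against vehicle, gives a comparison that shares no library with the one above. It called 391 genes, 3.21% of those tested (2.04% higher and 1.17% lower), and 196 without RGW 1, 224 without RGW 3, 229 without control 1 and 245 without control 2. Of the 617 genes called with D-galactose and the 391 called without, 149 were called in both, 24.1% of the longer list and 38.1% of the shorter, and all 149 moved the same way, 112 up and 37 down. The count shared was 99 to 169 over RLE scaling, no filter, the replicate block, DESeq2 and leaving out each library, lowest without RGW 1. It was not counted in fits with only the groups compared, where RGW against control called 91 genes in all. Over the 617 genes, 85.6% had the same sign without D-galactose, against 59.2% of all genes, and Pearson's r between the effects was 0.80 across these genes, which are not independent replicates, against 0.15 over all 12184. Shared changes included Cdhr1 (-0.99 ± 0.078 with and -0.66 ± 0.077 without D-galactose), Cd80 (-0.49 ± 0.033 and -0.29 ± 0.034), Col18a1 (-0.41 ± 0.046 and -0.32 ± 0.046), Enpp2 (0.67 ± 0.097 and 0.51 ± 0.1), Igfbp4 (0.58 ± 0.064 and 0.46 ± 0.063) and Grem1 (0.37 ± 0.051 and 0.47 ± 0.051). Among cholesterol synthesis genes Msmo1 (-0.24 ± 0.043 and -0.24 ± 0.042) and Sqle (-0.23 ± 0.041 and -0.21 ± 0.04) fell in both.

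No gene was called for a difference between the effect of the extract with and without D-galactose (0 with edgeR, 1153 or 9.46% at an unadjusted p under 0.05, 20 with DESeq2, and 3 without RGW_Dgal 1, 9 without Dgal 1, 1 without RGW 1 and 8 without control 3). The 3 genes of smallest p among those of at least 5 CPM were Jdp2, Ephx1 and Arrdc3, each at an adjusted p of 0.052. The effects were -0.37 ± 0.056 with and 0.06 ± 0.06 without D-galactose for Arrdc3, -0.24 ± 0.049 and 0.13 ± 0.051 for Ephx1, and 0.09 ± 0.049 and -0.28 ± 0.048 for Jdp2, a repressor of stress-activated transcription. Of all genes tested, 2.54% fell with D-galactose and 1.17% without, the shares to set beside the list counts that follow. For p53 targets 16 of 39 fell with D-galactose and 6 of 39 without, where the count was 3 without RGW 1 and 2 without RGW 3. Polk was -0.37 ± 0.048 with and -0.09 ± 0.05 without, Aen -0.22 ± 0.041 and 0.01 ± 0.042, and Myh3 0.31 ± 0.044 and 0.03 ± 0.043, with adjusted p of the difference of 0.147, 0.165 and 0.084. Of 33 integrated stress response genes 1 fell with and 16 fell without D-galactose, and of 29 mitosis genes 0 fell with and 10 fell without. The differences between these counts were not tested. In the setting without D-galactose these counts were 4 and 3 when RGW 3 was left out and 9 and 3 when control 1 was left out. The stress response count was also 4 without RGW 1 or control 2 and the mitosis count 6 without control 3. When RGW and control libraries were modelled by themselves, 6 stress response genes and 1 mitosis gene were called lower. Atf3, a stress-induced transcription factor, was -0.26 ± 0.095 with and -0.50 ± 0.11 without D-galactose (adjusted p of the difference = 0.601). The labels give 12 h for the extract alone, so that time and D-galactose cannot be told apart between the 2 settings.

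**Figure D4:**
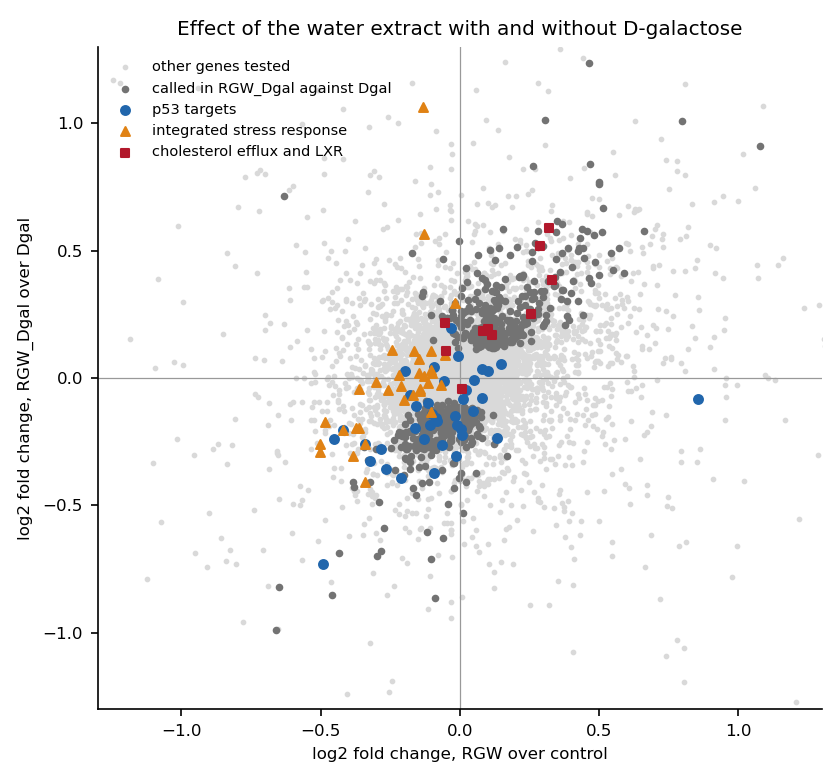
Log2 fold change of RGW over control (horizontal axis) and of RGW_Dgal over Dgal (vertical axis) for 12184 genes, of which 27 lie beyond the axes; dark grey marks the 617 genes called with D-galactose, and coloured symbols mark members of 3 lists (cholesterol efflux and LXR in red squares). The called genes run from lower left to upper right, p53 targets (blue circles) lie mostly below 0 on the vertical axis, and integrated stress response genes (orange triangles) lie mostly left of 0 on the horizontal axis.

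Set against the other pretreatments, RGW_Dgal was nearest to the non-saponin fraction by number of called genes. It differed from NSFr_Dgal in 78 genes (0.64% of those tested), 24 higher and 54 lower, from Rb2_Dgal in 968 (7.94%), and from SFr_Dgal in 4656 (38.2%). The fractions and the extract were given at the same mass per volume and Rb2 at a dose in other units. Against NSFr_Dgal 16 of 29 mitosis genes were lower and 0 higher, where 0.443% of all genes were lower. Ccna2, cyclin A2, stood at 10.9 ± 0.449 CPM in RGW_Dgal and 17.5 ± 1.25 CPM in NSFr_Dgal (SD, n = 3), a log2 fold change of -0.68 ± 0.079 (adjusted p = 8.4e-06), and Kif20a, a kinesin of cytokinesis, was at -0.52 ± 0.075 (adjusted p = 0.000466). The mitosis count was 4 without RGW_Dgal 2, 4 without NSFr_Dgal 1 and 6 without NSFr_Dgal 3, and the count of all genes was 42, 18 and 47 without RGW_Dgal 1, 2 and 3, 13 without NSFr_Dgal 1 and 23 without NSFr_Dgal 3. Cdhr1 was lower than in NSFr_Dgal by 0.46 ± 0.08 (adjusted p = 0.00425, and 0.0595 without NSFr_Dgal 1). Several genes that the extract moved did not pass against NSFr_Dgal, with differences of 0.07 ± 0.12 for Rgcc, -0.12 ± 0.034 for Ccng1, -0.01 ± 0.038 for Hmgcs1, 0.01 ± 0.062 for Igfbp4 and -0.00 ± 0.054 for Asprv1 (log2 ± SE). A p above the threshold does not show that the preparations act alike.

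Against Rb2_Dgal the extract gave lower p53 target levels, with 14 of 39 lower and 1 higher, lower cholesterol synthesis levels, with 16 of 26 lower and 1 higher, and lower mitosis levels, with 15 of 29 lower and 0 higher, beside 3.64% of all genes lower and 4.31% higher. Asprv1 stood at 52 ± 0.747 CPM in RGW_Dgal and 24.3 ± 1.31 CPM in Rb2_Dgal (log2 fold change 1.10 ± 0.059), Sfrp2 at 78.6 ± 1.4 CPM in RGW_Dgal and 38 ± 3.08 CPM in Rb2_Dgal (1.05 ± 0.051), and Cdhr1 at 18.7 ± 0.983 CPM in RGW_Dgal and 43.5 ± 1.87 CPM in Rb2_Dgal (-1.22 ± 0.076; SD, n = 3 each). Ccng1 was lower by 0.31 ± 0.034 and Rgcc by 0.68 ± 0.11 on the log2 scale. The count of genes was 629 without Rb2_Dgal 1 and 630 without RGW_Dgal 2.

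The saponin fraction gave the contrast with the most called genes. Against SFr_Dgal all 29 mitosis genes were higher, 34 of 46 sarcomere genes were higher and 5 lower, 24 of 26 cholesterol synthesis genes were lower, 7 of 10 efflux and LXR genes were lower and 30 of 34 proteasome genes were lower, beside 19.4% of all genes higher and 18.8% lower. Insig1, the sterol sensor partner, stood at 96 ± 2.13 CPM in RGW_Dgal and 339.8 ± 7.7 CPM in SFr_Dgal (log2 fold change -1.82 ± 0.042), and Abca1 at 14.4 ± 1.97 CPM in RGW_Dgal and 30.1 ± 4.39 CPM in SFr_Dgal (-1.07 ± 0.13; SD, n = 3). Col23a1, a transmembrane collagen gene, was higher than in SFr_Dgal by 2.68 ± 0.091 and the connexin gene Gja5 by 2.53 ± 0.073, whereas Gsta1, a glutathione transferase, was lower by 4.22 ± 0.17. Rgcc and Slc16a6 were lower in RGW_Dgal than in SFr_Dgal as well (-0.47 ± 0.11 and -0.59 ± 0.077). For Polk the difference was 0.03 ± 0.049 (adjusted p = 0.684).

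**Figure D5:**
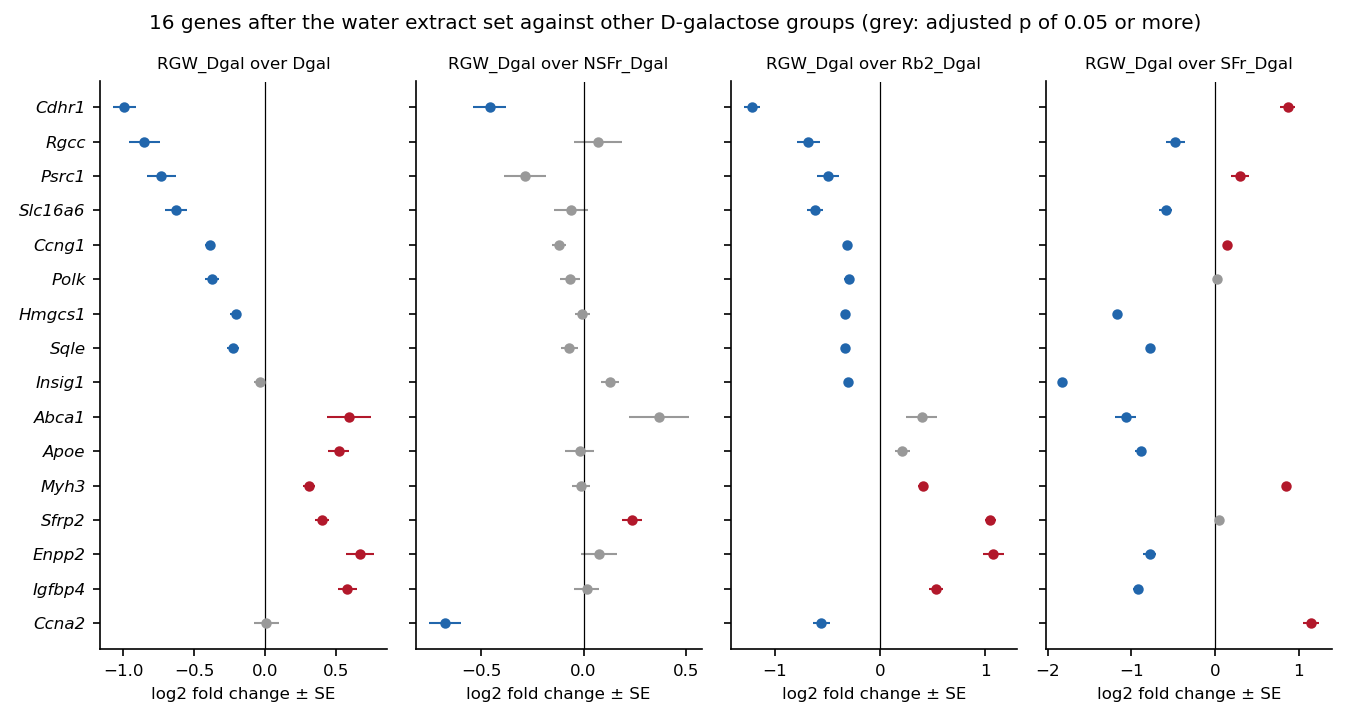
Log2 fold change ± SE (horizontal axes, scaled separately) of RGW_Dgal over Dgal, NSFr_Dgal, Rb2_Dgal and SFr_Dgal for 16 genes (rows); grey points did not pass an adjusted p of 0.05, red ones are higher and blue ones lower in RGW_Dgal. Most points are grey against NSFr_Dgal, where Ccna2 at -0.68 and Cdhr1 at -0.46 are the lowest, and Insig1 lies furthest to the left, at -1.82, against SFr_Dgal.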

How the data were processed

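Poly(A) RNA of 30 myotube cultures was sequenced. The authors deposited expected counts per gene, made with RSEM 1.3.3 after STAR 2.7.9a and Trim Galore 0.6.10 per the submitters' processing notes (builds GRCm38 and mm10). The sources used here do not give the annotation or strand setting, so overlapping and near-identical genes are uncertain. Counts were rounded (19.4% were not whole). The 30 libraries entered 1 group model in edgeR 4.0.16 (R 4.3.3) with TMM and filterByExpr, leaving 20 residual degrees of freedom, and p-values were adjusted by Benjamini-Hochberg over 12184 genes. Standard errors are the absolute log2 fold change over the square root of F. Of 16025 symbols, 16021 matched GENCODE vM21. The script was tested on simulated data.

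Genes named are the 15 largest rises and 15 largest falls at adjusted p under 0.05 with a mean of at least 5 CPM and no overlap between groups, up to 4 called members of each list or more where a list is described, a few regulators, and the 4 largest rises and falls of other comparisons. The members and the 54 lists were chosen with earlier results of these data known. Alternatives were RLE scaling, no filter, DESeq2 1.42.0, a replicate block, only the groups compared, and leaving out each library. Replicates differed beyond sampling noise, and p-values measure the spread between these cultures. Some items are not reported here. The 3-count floor covers counting error only.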

Additional observations from a re-analysis of the deposited data

How the results depend on the processing

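None of the 139 named genes called in RGW_Dgal against Dgal changed direction under RLE scaling, no filter, DESeq2, the replicate block, a fit on only those groups compared, or leaving out 1 library. Counts of called genes that moved by over 1.5 times did so mainly with fewer libraries. RGW_Dgal against Dgal gave 348 with only the groups compared and 342 to 453 without 1 library, against 617. The split between higher and lower calls was 328 and 291 with RLE scaling and 215 and 133 with only the groups compared, against 307 and 310. RGW against control gave 91 and 196 to 348, against 391, NSFr_Dgal as baseline 29 and 13 to 53, against 78, and Rb2_Dgal as baseline 629 to 852 without 1 library, against 968. The difference of the extract effects gave 3 without the filter, 2 with the replicate block, 20 with DESeq2 and 0 to 9 without 1 library, against 0. Deviations of same-numbered RGW_Dgal and Dgal libraries correlated at -0.05, 0.11 and -0.26, so the numbers do not pair the libraries, and the replicate block gave 599 genes in RGW_Dgal against Dgal. Of these 139 genes 66 were called in every alternative that gave a value, 10 or 11 for each gene, and 73 lost the call in at least 1, most often with fewer libraries. The cause of each lost call was not tested. Which genes were tested in the main fit was set by the edgeR filter, with a minimum count of 10. This limit lies above the 3-count floor of 0.104 to 0.135 CPM, so genes near that floor in all groups were not tested.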

Other observations

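The other lists described here held 1 to 3 called members each. Klf2, a transcription factor known from endothelium, stood at 13.5, 13.3 and 13.2 CPM in RGW_Dgal, against 9.96, 10.3 and 9.84 CPM in Dgal, and rose by 0.41 ± 0.086 (adjusted p = 0.00291), and Ier2, an immediate early gene, rose by 0.27 ± 0.052 (adjusted p = 0.00128). Of 18 genes of ERK feedback the phosphatase genes Dusp10 and Dusp4 fell by 0.20 ± 0.038 and 0.20 ± 0.046, beside 2.54% of all genes lower, and the call of Dusp4 was lost without RGW_Dgal 3 (0.0612). In the IGF axis Irs2, an adaptor of the insulin receptor, rose by 0.29 ± 0.077 and Igfbp3, a binder of the growth factors, fell by 0.28 ± 0.071, calls that were lost without RGW_Dgal 2 (0.101), Dgal 2 (0.0705) or Dgal 3 (0.0763) and without RGW_Dgal 2 (0.139) or Dgal 1 (0.0631). Among genes of fat use, Angptl4, an inhibitor of lipoprotein lipase, fell by 0.31 ± 0.077 and the fatty acid transporter gene Cd36 rose by 0.19 ± 0.054, with calls lost without RGW_Dgal 2 (0.12) or Dgal 3 (0.0644) and without RGW_Dgal 2 (0.134), RGW_Dgal 3 (0.0687), Dgal 2 (0.124) or Dgal 3 (0.146). In the respiratory chain 1 of 40 nuclear genes rose, Cox6a2, the muscle form of a cytochrome oxidase subunit (0.36 ± 0.084), and 1 fell, Uqcrc2 (-0.14 ± 0.033), a share no higher than the 5.06% of all genes. Cox6a2 lost its call without RGW_Dgal 2 (0.0562), RGW_Dgal 3 (0.0682), Dgal 1 (0.0584) or Dgal 3 (0.0637), and Uqcrc2 without RGW_Dgal 2 (0.0529). Of 49 tested ribosomal protein genes 1 was called, Rpl10a (0.23 ± 0.066), whose call was lost without any 1 of 5 of the 6 libraries. Most of the 49 lay slightly higher in RGW_Dgal, 43 above 0 and 6 below, with a median log2 fold change of 0.09. With edgeR 14 of them had an unadjusted p under 0.05, beside 18.5% of all genes, and the shared direction was not tested.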
